A study of Homo sapiens with 4 samples.

Results

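The genes described here were 5 extracellular matrix and collagen receptor genes measured in ATOH1-TRAP cultures: COL1A1, COL9A1, HAPLN1, TNC and ITGA1. They were chosen because they were lower in the TRAP libraries than in the input, so their levels are given as a description, with no test. All 5 were found among 1772 genes that could be tied to the deposited transcripts. TRAP (translating ribosome affinity purification) pulls down tagged ribosomes with the mRNA bound to them. The cells were of the human embryonic stem cell line RUES2, transgenic for a lentivirus that carried EGFP-L10a, a ribosomal protein fused to green fluorescent protein, under an ATOH1 enhancer. Clones of such cells were expanded, and the sources used here do not say how many gave these libraries. ATOH1 is the proneural factor of the rhombic lip lineage from which cerebellar granule cells arise. All libraries came from cultures at day 28 in vitro (DIV28) on transwell membranes under puromycin. Every culture had received the SMAD inhibitors SB431542 and LDN-193189, the WNT agonist CHIR99021, FGF2, BMP7 and BDNF, so no group lacked any of these agents. The 3 IP libraries held RNA eluted from anti-GFP beads after separate differentiation experiments, and the 1 input library held RNA not selected on the beads. Total estimated counts were 34603230, 36860319 and 37719839 for IPs 1, 2 and 3 and 41173019 for the input.

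The labels and the file tags did not point to the same library as the input. The title of the sample labelled input carries a tag that only 1 file has, but the file list ties that file to a sample labelled IP. The library with this tag was used as the input, and the study's gene list was tied to the transcripts with it in that place. ATOH1, whose enhancer drove EGFP-L10a, had 26.1, 36.0 and 33.2 CPM (estimated counts scaled to a common library size) in IPs 1, 2 and 3. It had 0.173 CPM in the input, where 7 reads were assigned to it. The library called input therefore held almost no ATOH1 mRNA, although its label names ATOH1+ progenitor cells. How far this difference came from the pull-down or from the culture behind the input was not tested. ATOH1 is therefore not used as a check of the pull-down. With the label's link between samples and files in its place, the log2 ratio of each member changed sign, because 1 IP library and the input then traded places. As there was 1 input, no spread could be measured for it. The files of IPs 1, 2 and 3 all shared another tag. A difference between IP and input can therefore not be told apart from one between the tags, whose meaning is not given.

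The extracellular matrix is a network of secreted proteins and sugars in which cells sit. Collagens assemble from 3 chains into fibrils, and type IX collagen sits on the surface of cartilage-type fibrils. Hyaluronan, a long sugar chain, is held to proteoglycans such as versican by link proteins. Cells grip this network with integrins, which are pairs of an alpha and a beta chain, and matricellular proteins such as tenascin-C tune that grip. In the developing brain much of the fibrillar collagen is made by the meninges and vessels, while hyaluronan, link protein and tenascin-C surround neural progenitors.

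COL1A1 encodes the main chain of type I collagen, the fibrillar collagen of skin and bone (chr17:48261462-48278993, minus strand, hg19). It was measured at 1067, 1125 and 950 CPM in IPs 1, 2 and 3 and 2882 CPM in the input. The IPs lay close together and all below the input. Their mean was 1047 ± 89.2 CPM (SD, n = 3), which is a log2 ratio of IP to input of -1.46, so the input was 2.75-fold higher. COL1A1 differed least from the input of the 5 members.

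COL9A1 encodes 1 of the 3 chains of type IX collagen (chr6:70925743-71012787, minus strand, hg19). It had 9.49, 10.7 and 11.8 CPM in the IPs against 154 CPM in the input, and all IPs lay far below the input. This was the largest difference from the input among the members. The IP mean was 10.7 ± 1.15 CPM (SD, n = 3) and the input was 14.5-fold higher, a log2 ratio of -3.86. The IP values rested on 340, 395 and 436 estimated reads against 6242 in the input, so they were the most sparsely counted of the group.

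HAPLN1 encodes the hyaluronan and proteoglycan link protein 1, which fixes versican and aggrecan to hyaluronan (chr5:82933624-83016674, minus strand, hg19). Its levels were 90.9, 78.6 and 95.03 CPM in the IPs against 763 CPM in the input. The IPs did not overlap the input. The IP mean of 88.2 ± 8.55 CPM (SD, n = 3) gave a log2 ratio of -3.11, with the input 8.65-fold higher.

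TNC encodes tenascin-C, a large matrix glycoprotein found around neural progenitors and in wounds (chr9:117781854-117880486, minus strand, hg19). It had 191, 180 and 165 CPM in the IPs against 1060 CPM in the input, again with no overlap. The IP mean was 178 ± 13.0 CPM (SD, n = 3). The log2 ratio was -2.57, so TNC was 5.94-fold higher in the input.

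ITGA1 encodes the alpha-1 integrin chain, which pairs with the beta-1 chain of ITGB1 to bind collagen (chr5:52083750-52255039, plus strand, hg19). It was measured at 33.4, 30.9 and 29.8 CPM in the IPs against 241 CPM in the input. In CPM its IP libraries were the most alike of the 5 members, with a coefficient of variation of 5.89%, and lay apart from the input. The IP mean was 31.3 ± 1.85 CPM (SD, n = 3) and the log2 ratio was -2.94, with the input 7.68-fold higher.

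**Figure D1:**
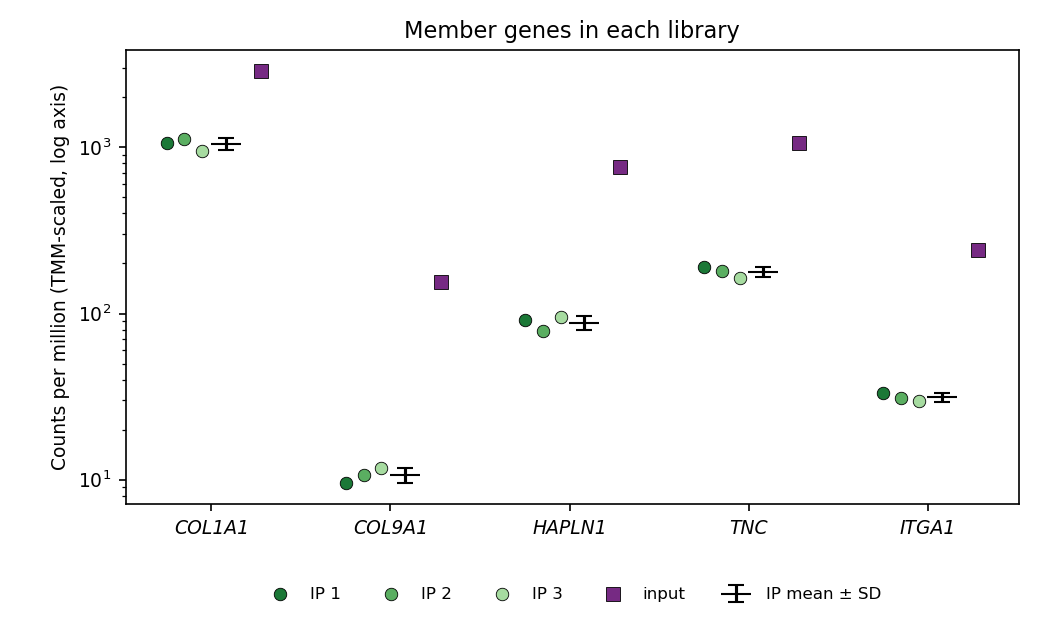
Level in CPM, scaled by the trimmed mean of M values (TMM), on a log axis for the 5 members in each library. Circles are the 3 IP libraries, the bar is their mean with its SD and the square is the single input library. For each member the 3 circles lie together and the square lies above them, from 2.75-fold for COL1A1 to 14.5-fold for COL9A1.

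For all 5 members every IP lay under the input, a count fixed by how they were chosen. As background, 664 of all 43420 features tested were called lower in the IPs (1.53%), and so were 500 of the 1772 tied genes (28.2%), at an edgeR adjusted p under 0.05. By direction alone, 47.1% of all features and 50.1% of the tied genes had a log2 fold change of IP over input below 0. Of the 1772 tied genes, 461 had 1 transcript and were left out of a count of genes lower in every IP. Among the rest, 738 were lower in every IP, so a lack of overlap is common. The same count was not made over all features. The difference was wider than the spread between IPs for each member, since their coefficients of variation ran from 5.89% to 10.7%. The log2 ratios of single IPs to the input ran from -1.60 to -1.36 for COL1A1, from -4.02 to -3.71 for COL9A1, from -3.28 to -3.0 for HAPLN1, from -2.69 to -2.47 for TNC and from -3.02 to -2.85 for ITGA1. In CPM these ranges do not overlap between any 2 members except those of HAPLN1 and ITGA1, which overlap at their ends. All of them rest on the same single input, so they hold the spread of the IPs only. The IPs held mRNA bound to tagged ribosomes, and the input held unselected RNA. A low IP level may come from mRNA of untagged cells in the input, fewer cells of a type, less RNA per cell or less of it on ribosomes. These cannot be told apart here. Together the 5 genes took 0.501% of the estimated counts in the input and 0.123 to 0.144% in the IPs.

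Levels can be compared between genes only per length, as TPM, Salmon's share of transcripts after division by length. On this scale COL1A1 was the most abundant member in every library, and the order in the IPs was COL1A1 (210 ± 25.1 TPM, SD, n = 3), then TNC (26.9 ± 3.06) and HAPLN1 (22.8 ± 2.01), then ITGA1 (7.21 ± 0.713) and COL9A1 (4.37 ± 0.363). TNC and HAPLN1 were neighbours in this order whose IP values overlapped, from 23.7 to 29.8 TPM for TNC and from 20.6 to 24.4 TPM for HAPLN1. By TPM the coefficient of variation of ITGA1 over the IPs was 9.89%, above those of COL9A1 (8.29%) and HAPLN1 (8.82%). In the input the order was COL1A1 at 726 TPM, HAPLN1 at 246, TNC at 235, COL9A1 at 77.7 and ITGA1 at 70.1. HAPLN1 changed places with TNC and COL9A1 with ITGA1, but the pairs in the input lay close and a single library gives no spread. COL1A1 made up 75.6 to 79.3% of the summed TPM of the 5 genes in the IPs against 53.6% in the input. Among the 1772 tied genes COL1A1 ranked 97th by TPM in the input and 286th to 326th in the IPs. COL9A1 ranked 612th in the input and 1533rd to 1613th in the IPs.

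The deposited values are per transcript, so the composition of each member could be followed. COL1A1 was nearly all 1 transcript, uc002iqm.3 of 5927 nucleotides, which held 99.8% of its reads in the input and 99.9 ± 0.143% in the IPs (SD, n = 3). ITGA1 was likewise mostly uc003jou.3, with 98.3% of its reads in the input and 96.9, 85.2 and 97.3% in IPs 1, 2 and 3. In IP 2 a further 12.7% went to uc003jov.3, which differs in length by only 4 nucleotides, and the estimate can split reads between near-identical transcripts. These 2 genes thus kept the same main transcript in IP and input, as did HAPLN1 and COL9A1, described below.

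TNC was the member with the widest change in composition. The transcript uc022bmj.1 of 5216 nucleotides, the shortest of the 3, held 2.55, 2.97 and 3.03% of the reads in the IPs against 36.99% in the input. Its level was 4.86, 5.34 and 4.99 CPM in the IPs against 392 CPM in the input, 77.4-fold higher. The longer uc010mvf.3 of 7652 nucleotides went from 119 ± 10.0 CPM in the IPs (SD, n = 3) to 341 CPM in the input, 2.87-fold higher. The longest, uc004bjj.4 of 8600 nucleotides, held similar shares in both kinds of library, 30.5 ± 2.31% in the IPs (SD, n = 3) and 30.8% in the input. Weighted by TPM, the mean TNC transcript was 7790 to 7827 nucleotides long in the IPs against 6706 in the input. The log2 ratio of TNC was -1.52 by uc010mvf.3, its most read transcript in the IPs, and -6.27 by uc022bmj.1, its most read transcript in the input, against -2.57 over all its transcripts.

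HAPLN1 held a transcript that went against the gene. uc003kin.3 of 4678 nucleotides carried most of the reads, with 76.5, 62.9 and 77.5 CPM in the IPs against 762.2 CPM in the input. uc003kim.3 of 4434 nucleotides had 14.3, 15.7 and 17.5 CPM in the IPs against 0.367 CPM in the input, where 15 reads were assigned to it. It was 43.1-fold higher in the IPs, while the gene as a whole was lower there. It took 18.1 ± 2.11% of the HAPLN1 reads in the IPs (SD, n = 3) and 0.0482% in the input.

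COL9A1 was mostly uc003pff.4 of 3050 nucleotides, at 340, 385 and 344 reads in the IPs against 5636 in the input. The longest transcript, uc003pfg.4 of 3782 nucleotides, was at 0 in all 3 IPs and held 515 reads in the input, 8.25% of the gene. With 0 of 340, 395 and 436 reads of the gene, the share of uc003pfg.4 could still have been up to 0.882, 0.759 and 0.688% in IPs 1, 2 and 3, a limit of 3 reads that covers counting error only. The short uc003pfe.4 of 2643 nucleotides varied among the IPs, from 0 to 21.1% of the gene.

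**Figure D2:**
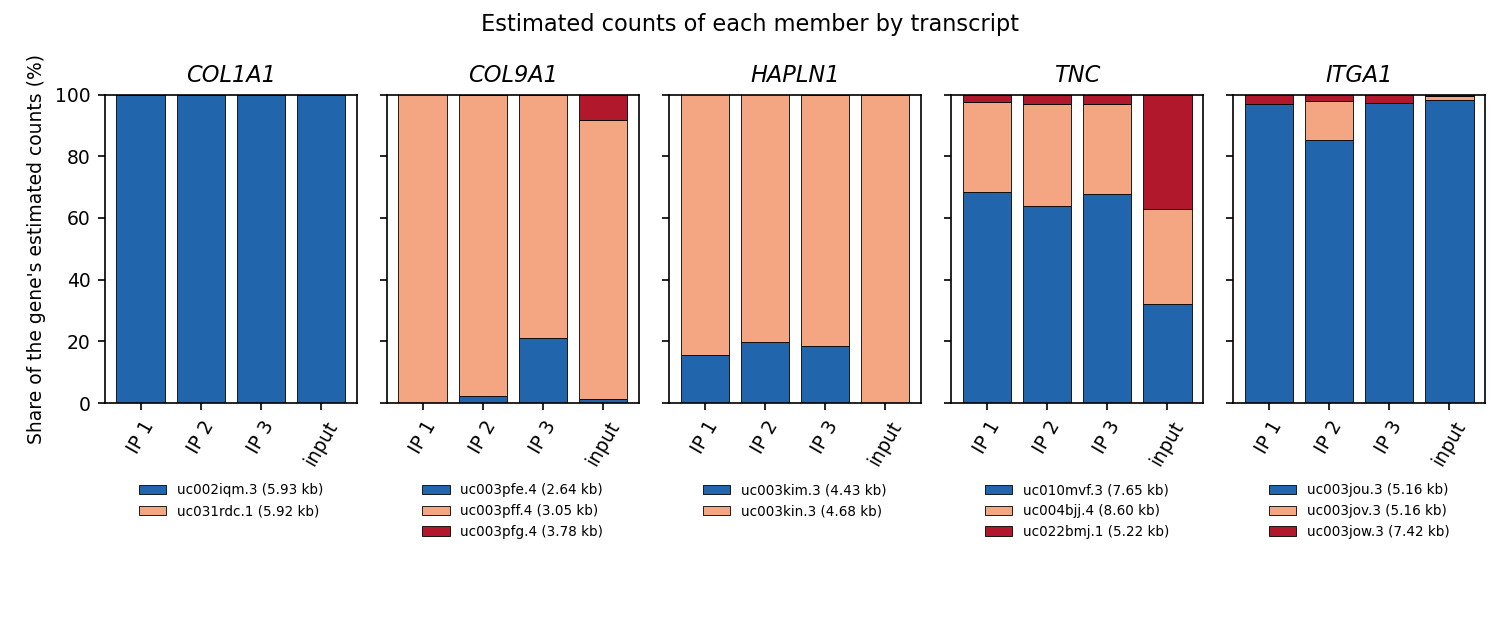
Share of each member's estimated counts (%) assigned to each of its transcripts in the 3 IP libraries and the input, with transcript lengths in kilobases. In TNC the red part is uc022bmj.1, 2.55 to 3.03% in the IPs against 36.99% in the input, and in HAPLN1 the blue part is uc003kim.3, 15.8 to 19.9% in the IPs and nearly 0 in the input.

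The RefSeq table used here lists 2 starts for COL9A1, near which 4 and 2 of its 16 GENCODE transcripts begin, and a longer and a shorter form of the alpha-1 chain of type IX collagen are known, the longer one from cartilage. The RefSeq windows around the starts of the members with more than 1 changing transcript are shown for this reason, each with 250 bases before and 50 after the start. Their sequences match 1 place each in GRCh37 (hg19), and they lie at chr6:70992851-70993150 and chr6:71012738-71013037 for COL9A1, chr5:83016625-83016924 for HAPLN1 and chr9:117880387-117880686 for TNC, all on the minus strand. The 2 COL9A1 starts are 19.9 kb apart. Capitals mark the motifs searched on either strand, which were the TATA box written as TATAAA, the CCAAT box and the GC box written as GGGCGG.
COL9A1, downstream start: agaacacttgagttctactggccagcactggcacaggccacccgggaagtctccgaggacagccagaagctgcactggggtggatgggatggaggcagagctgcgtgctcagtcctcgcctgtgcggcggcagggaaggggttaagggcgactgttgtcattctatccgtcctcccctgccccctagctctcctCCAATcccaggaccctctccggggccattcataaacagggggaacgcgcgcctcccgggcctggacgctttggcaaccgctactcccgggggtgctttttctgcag
COL9A1, upstream start: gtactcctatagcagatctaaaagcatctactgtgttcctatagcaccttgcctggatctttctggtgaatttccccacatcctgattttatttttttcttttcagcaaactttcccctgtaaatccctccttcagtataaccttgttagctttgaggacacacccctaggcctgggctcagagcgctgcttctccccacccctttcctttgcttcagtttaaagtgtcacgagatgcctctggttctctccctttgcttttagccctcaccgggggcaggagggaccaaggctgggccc
HAPLN1: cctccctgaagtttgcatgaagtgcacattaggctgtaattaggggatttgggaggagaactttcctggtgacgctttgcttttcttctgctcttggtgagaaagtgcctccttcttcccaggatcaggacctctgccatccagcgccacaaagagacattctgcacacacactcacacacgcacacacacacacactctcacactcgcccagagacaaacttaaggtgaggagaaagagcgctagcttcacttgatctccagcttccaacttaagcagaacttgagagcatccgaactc
TNC: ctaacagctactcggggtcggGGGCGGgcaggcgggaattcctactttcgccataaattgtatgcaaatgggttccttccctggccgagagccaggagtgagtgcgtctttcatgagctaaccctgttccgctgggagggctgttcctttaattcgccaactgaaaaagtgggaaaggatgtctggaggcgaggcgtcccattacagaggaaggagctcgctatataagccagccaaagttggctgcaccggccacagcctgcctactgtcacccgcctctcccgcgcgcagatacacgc

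The downstream COL9A1 window was rich in G and C (63.3%) and held a CCAAT box 56 bases before the start, while the upstream window (49.3% G and C) held none of the 3 motifs. Near the downstream start GENCODE annotates COL9A1-201 of 3051 nucleotides, 1 base from the length of the deposited uc003pff.4. At the upstream start it annotates COL9A1-202 of 3697 nucleotides, while the deposited uc003pfg.4 has 3782. The deposited files give no position for a transcript, so which of them begins at which start was read from length only. The TNC window held GGGCGG 229 bases before the start, and the HAPLN1 window held none of the motifs. Only the 3 exact strings were searched. The TNC window also holds tatataag, a TATA-like stretch nearer the start, which a search for TATAAA could not find. Of 35116 RefSeq windows, 11.5% hold TATAAA, 34.6% hold CCAAT and 45.0% hold GGGCGG on either strand, so such matches are common.

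Members were next set beside the chains and ligands they work with. For this, TPM of the transcript of each gene with the most reads over the 4 libraries together was used, because a very short transcript dominates the TPM sum of COL1A2. In type I collagen, COL1A2 encodes the other chain, and the ratio of COL1A1 to COL1A2 was 0.661, 0.682 and 0.640 in IPs 1, 2 and 3 and 0.371 in the input. Each IP thus exceeded the input, as COL1A2 was at 1953 TPM in the input and 317 ± 30.0 TPM in the IPs (SD, n = 3).

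In type IX collagen the order was the reverse. COL9A1 per COL9A2 was 0.0925, 0.1201 and 0.102 in the IPs against 0.588 in the input, and COL9A1 per COL9A3 was 0.112, 0.137 and 0.112 in the IPs against 0.650 in the input. The 3 chains were of the same order of level in the input and COL9A1 lagged the other two in the IPs. COL9A2 and COL9A3 were themselves lower in the IPs, with log2 fold changes of -1.31 and -1.11 against -3.86 for COL9A1. Ratios are given as a description because COL9A1 was chosen on this contrast.

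ITGA1 was compared with its partner chain and with ITGA11, another collagen-binding alpha chain. ITGA1 per ITGB1 was 0.0345, 0.0250 and 0.0297 in the IPs against 0.132 in the input. ITGA1 per ITGA11 was 0.514, 0.439 and 0.457 in the IPs against 0.872 in the input. ITGB1, which pairs with many alpha chains, was thus less different between IP and input than ITGA1. HAPLN1 per VCAN, the gene of versican, was 9.03, 5.40 and 5.57 in the IPs against 6.15 in the input, which lay within the range of the IPs. Summed over all transcripts of both genes this ratio was 1.52, 1.12 and 1.51 in the IPs against 2.38 in the input, so its direction depended on the transcripts taken.

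**Figure D3:**
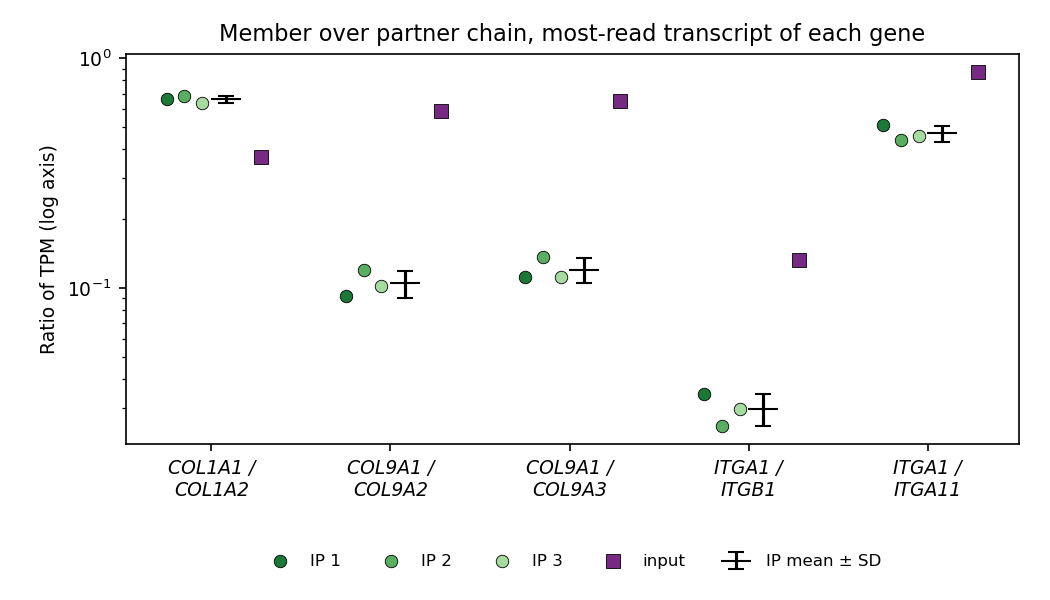
Ratio of the TPM of a member to that of a partner (log axis), from the transcript of each gene with the most reads over the 4 libraries together. Circles are the 3 IP libraries, bars their mean with SD and squares the input. The COL1A1 to COL1A2 ratio is larger in the circles than in the square, and the other 4 ratios are smaller.

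The wider matrix list held 189 genes in 10 roles, of which 66 could be tied to transcripts and the others were not analysed here. The tied genes came from the part of the study's gene list in which each gene had been called by the study, so the counts that follow are not independent evidence of a direction. With edgeR (quasi-likelihood F-test, Benjamini-Hochberg adjusted), 51 of the 66 (77.3%) were lower in the IPs, 3 were higher and 12 did not pass. Without the 5 members it was 46 of 61 (75.4%), and the counts by role below include them. Among all 1772 tied genes 28.2% were called lower and 28.9% higher, and among all 43420 features 1.53% and 2.33%. The median log2 fold change (log2FC, IP over input) was -1.66 over the 66 genes, -0.45 over the tied genes and 0.10 over all features. The calls rested on all 3 IPs, since without any 1 of them edgeR made 0 calls while 62 and 4 of the 66 kept an unadjusted p under 0.05. limma-voom made 0 calls with the same 62 and 4, and DESeq2 called 62 lower and 4 higher. With the label's link, edgeR made 0 calls and 0 had an unadjusted p under 0.05.

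All 5 tied fibrillar collagens and all 3 tied fibril-associated collagens were lower in the IPs. COL1A2 had 1493, 1522 and 1365 CPM in the IPs against 7225 CPM for input, a log2FC of -2.31 (SE 0.10, adjusted p = 0.0168). The log2 ratio of COL1A1 was -1.46. COL2A1, the cartilage fibrillar chain, fell by 1.83 on the log2 scale (adjusted p = 0.0290), but with transcript length taken into account the change was -0.97 and did not pass (adjusted p = 0.0615). COL5A2, a chain that limits fibril width, fell by 1.18 (adjusted p = 0.0360). The 3 tied members of the other collagens, COL26A1, COL4A5 and COL13A1, were all lower, with log2FCs of -1.49, -1.43 and -2.22.

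Of 13 tied genes of collagen processing, 11 were lower, none was higher and 2 did not pass, with a median log2 fold change of -1.38. P4HB, a subunit of the prolyl hydroxylase that stabilises the triple helix, was 641, 654 and 652 CPM in the IPs against 1353 CPM for input (log2FC -1.06, adjusted p = 0.0290). SERPINH1, the collagen chaperone, was lower with a log2FC of -0.86 (adjusted p = 0.0465). LOXL2, a crosslinking oxidase, had -1.67 (adjusted p = 0.0290) and P4HA1, the catalytic hydroxylase subunit, had -1.24 (adjusted p = 0.0383). The log2FCs of this role ran from -2.50 to -0.86.

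In the hyaluronan and proteoglycan group, 5 of 9 tied genes were lower, 1 was higher and 3 did not pass. VCAN, whose protein HAPLN1 ties to hyaluronan, had 88.2, 102 and 102 CPM in the IPs against 554 CPM for input (log2FC -2.50, adjusted p = 0.0182). HAS2, an enzyme that makes hyaluronan, named after its values were seen, had 0.726, 2.22 and 1.11 CPM in the IPs against 93.1 CPM for input (log2FC -6.10, adjusted p = 0.0306). AGRN, the synapse-organising proteoglycan agrin, went the other way with 188.5, 153 and 142 CPM in the IPs against 28.8 CPM for input (log2FC 2.48, adjusted p = 0.0304). SDC3, a syndecan, had a log2FC of -1.03 and did not pass (adjusted p = 0.0786).

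Of 12 tied glycoproteins, 8 were lower, 1 was higher and 3 did not pass. TGFBI, an integrin ligand, was lower in the IPs with a log2FC of -2.81 (adjusted p = 0.0188), or -1.99 with the transcript length offset, and so was POSTN, the gene of periostin, with -1.80 (adjusted p = 0.0449). CTGF, a matricellular protein, had a log2FC of -0.97 and did not pass (adjusted p = 0.0725). EFEMP1, a fibulin, was 45.8, 48.4 and 60.8 CPM in the IPs against 10.7 CPM for input, with a log2FC of 2.27 (adjusted p = 0.0373). FBLN5, another fibulin, had a log2FC of 1.19 and did not pass (adjusted p = 0.0825). TNC at -2.57 lay below the median of this role, which was -1.84.

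Of 13 listed laminin and nidogen genes, whose proteins lie in the basement membrane, 5 were tied and 4 of these were lower in the IPs. LAMB1 and LAMC1, which are chains of the common laminins, had log2FCs of -2.50 (adjusted p = 0.0188) and -2.33 (adjusted p = 0.0197). LAMB2 fell by 1.29 (adjusted p = 0.0385). NID2, which links laminin to collagen IV, had -2.48 and did not pass (adjusted p = 0.0515).

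Among the collagen receptors 3 of 4 tied genes were lower. Besides ITGA1, ITGA11 had 61.1, 58.2 and 63.3 CPM in the IPs against 265 CPM for input (log2FC -2.12, adjusted p = 0.0185). ITGB1 had 752, 837 and 789 CPM in the IPs against 1835 CPM for input (log2FC -1.21, adjusted p = 0.0290). DDR2, a kinase that senses collagen, had a log2FC of -1.33 and did not pass (adjusted p = 0.0676). Of the other integrin chains, 4 of 5 were lower, with ITGA5 at -1.84 (adjusted p = 0.0290), ITGA4 at -1.80 (adjusted p = 0.0467) and ITGAV at -1.49 (adjusted p = 0.0466), while ITGB5 at -1.39 did not pass (adjusted p = 0.0684).

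Of 7 tied proteases and inhibitors, 5 were lower and 1 was higher. MMP9, a gelatinase, had 1.34, 0.921 and 0.649 CPM in the IPs against 265 CPM for input, a log2FC of -8.09 (adjusted p = 0.0168). MMP2, the other gelatinase, fell by only 1.15 (adjusted p = 0.0382). TIMP2, an inhibitor that also helps activate MMP2, was higher in the IPs at 88.4, 91.5 and 84.0 CPM against 29.7 CPM (log2FC 1.57, adjusted p = 0.0294), and TIMP3 fell by 0.82 (adjusted p = 0.0453).

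**Figure D4:**
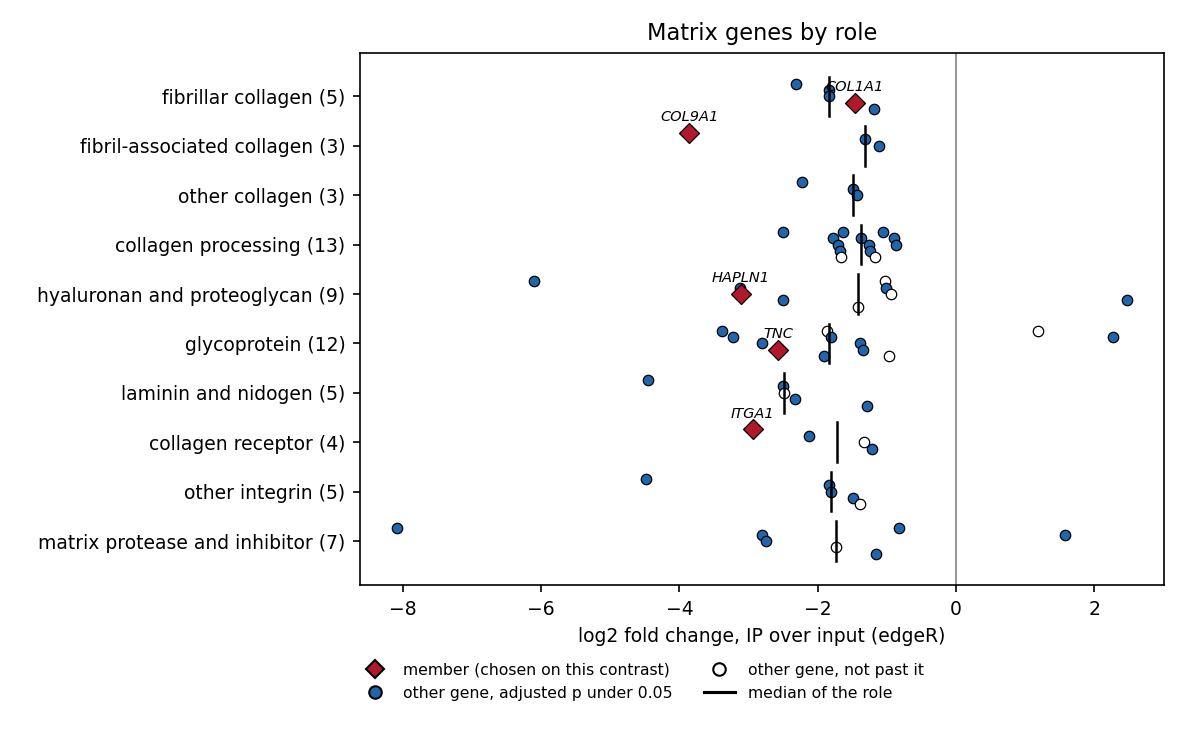
Log2 fold change of IP over input (edgeR) for the 66 tied matrix genes, in rows by role with the number of genes in brackets. Red diamonds are the 5 members, blue circles are other genes past an adjusted p of 0.05, open circles are genes not past it and black bars are medians. The points lie left of 0 for 62 of the 66 genes, and AGRN, EFEMP1, FBLN5 and TIMP2 lie to the right.

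Marker genes of other cell types moved in part with the members. Of 10 chondrogenic markers 4 were tied and 3 were lower in the IPs, with a summed level of 358 to 459 TPM in the IPs against 1219 TPM in the input. COL2A1 supplied most of this sum, and the other 3 summed to 40.0 to 47.3 TPM in the IPs against 277 TPM in the input. SOX9, the cartilage and glial regulator, had a log2FC of -1.81 (adjusted p = 0.0290) and MATN3, a cartilage matrilin, of -3.38 (adjusted p = 0.0290). COL2A1 and MATN3 also belong to the matrix list, and COL2A1 did not pass with the transcript length offset. Of 16 mesenchyme markers 4 were tied, with a summed level of 965 to 1052 TPM in the IPs against 888 TPM in the input. TAGLN supplied most of this sum, and the other 3 summed to 137 to 144 TPM in the IPs against 370 TPM in the input. SNAI2 fell by 0.94 (adjusted p = 0.0390), PDGFRB had -1.25 and did not pass (adjusted p = 0.0775), MEOX2, named after its values were seen, had -2.63 and did not pass (adjusted p = 0.102), and TAGLN was higher in the IPs at 1.06 (adjusted p = 0.0475, and 0.0510 with median-ratio scaling). Of 14 endothelial markers only CLDN5 was tied, and it was at 9.42 to 23.7 TPM in the IPs against 0.609 TPM for input (log2FC 5.11, adjusted p = 0.0488, and 0.0502 with median-ratio scaling). Of the radial glia list 2 of 9 were tied, FABP7 (log2FC 1.74, adjusted p = 0.0702) and S100B (-1.59, adjusted p = 0.0739), with a summed level of 63.9 to 81.8 TPM in the IPs against 87.8 TPM in the input. Of the neural crest list NGFR, 1 of 8, was tied (log2FC 1.09, adjusted p = 0.0561), at 26.5 to 34.57 TPM in the IPs against 18.4 TPM in the input. None of the tied markers of these lists was at 0 in any library, and markers that were not tied were not analysed here. The part of such cells in the levels of the members was not tested.

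The ATOH1 lineage list went the other way from the members. Of its 10 genes 9 were tied and 7 were higher in the IPs, with a summed level of 1020 to 1520 TPM in the IPs against 64.2 TPM in the input. HES6 supplied most of the IP sum, and the other 8 summed to 169 to 197 TPM in the IPs against 41.7 TPM in the input. ATOH1 had a log2FC of 7.49 (adjusted p = 0.0205) and HES6, a neurogenic bHLH repressor, of 5.87 (adjusted p = 0.0212). SOX11 and MEIS2, transcription factors of young neurons, had 1.85 (adjusted p = 0.0273) and 1.27 (adjusted p = 0.0326).

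Genes with the profile most like that of each member were sought among the 1772 tied genes, by the root mean square distance of centred log2 CPM over the 4 libraries. This measure rests mostly on the size of the one step between IP and input. For COL1A1 the nearest were CX3CL1 (0.00936) and LRIG1 (0.0165), for COL9A1 CDKN2B (0.116) and MAMDC2 (0.138), and for HAPLN1 TNFRSF11B (0.08001) and LPL (0.101). For TNC they were CPD (0.0303) and MIR4461 (0.0523), a 74-nucleotide feature, and for ITGA1 PTGS2 (0.0485) and ETV4 (0.0538). COL9A1 had the loosest match. None of these 10 genes was a matrix gene of the list, but only 66 of the 1772 tied genes were, so few would be found among 10.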

How the data were processed

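ATOH1-TRAP RNA was sequenced from 3 IP and 1 input libraries of DIV28 cultures. The authors made full-length cDNA by SMART-Seq and Nextera XT libraries, quantified single reads with Salmon 0.8.2 against hg19 UCSC known genes, and the deposited values are expected counts (estimated counts) and TPM for each of 69548 transcripts. The authors made gene values with tximport and DESeq2 1.20.0.

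Runs of 1 to 20 neighbouring transcripts were summed and tied to the symbols of the study's gene list by mean count, log2 ratio and genome order, for 1772 of the 1998 genes that could be read. The values of that list served only for this tie. Estimated counts were rounded and tested with edgeR 4.0.16 in R 4.3.3 (TMM, quasi-likelihood, at least 10 counts, 43420 features, adjusted p threshold 0.05). The table of features held the tied genes and all other single transcripts. limma 3.58.1 and DESeq2 1.42.0 were alternatives. The members and lists were chosen with earlier results of these data known, and the named genes follow a rule: highest mean CPM per role or marker list, any gene against the direction of its role, and the 2 nearest profiles of each member. The spread of the single input was assumed to be that of the IPs, so p-values rest on the spread among the 3 IPs only. Salmon divides reads between transcripts that overlap, so values of single transcripts are estimates. Promoter windows came from RefSeq (GRCh38.p14) and were placed in GRCh37 by exact match, with GENCODE v44lift37 annotation. No promoter of COL1A1 was used.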

Additional observations from a re-analysis of the deposited data

How the results depend on the processing

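No paired analysis was possible because the single input library can share at most 1 replicate number with the IPs, and its number was given in accession order and pairs nothing. The precision is limited by 1 input and 3 IPs. By edgeR's quasi-likelihood test 51 matrix genes were lower and 3 higher, and these counts stayed at 51 and 3 with median-ratio scaling, 53 and 3 with a transcript length offset, 45 and 3 with no filter, 60 and 4 with at least 50 counts in 2 libraries and 62 and 4 with DESeq2. They were 0 and 0 with limma-voom, 0 to 0 and 0 to 0 without each IP in turn, although 62 and 4 kept an unadjusted p under 0.05 in each of these, and 0 and 0 (unadjusted 0 and 0) with the input by the link of the file list. Over all features the main counts were 664 lower and 1011 higher. DESeq2 gave 3977 and 5738, at least 50 counts in 2 libraries gave 1163 and 1838 of 27524, and limma-voom gave 0 and 0 (unadjusted 6329 and 3751). Without each IP in turn the counts were 0 to 0, with 3111 to 3641 lower and 3533 to 4213 higher at an unadjusted p under 0.05, and by the link 0 and 0 (unadjusted 227 and 1031).

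The log2 ratios of the members by TPM were -1.79 for COL1A1, -4.15 for COL9A1, -3.43 for HAPLN1, -3.13 for TNC and -3.28 for ITGA1. HAPLN1, TNC and ITGA1 thus lay closer together by TPM than in CPM, so their separation depended on the scale. By the transcript with the most reads in total over the 4 libraries alone they were -3.40 for HAPLN1 and -1.52 for TNC, where the alternative leaves out the other transcripts. For TNC this is not the most read transcript of the input, which gave -6.27. Without each IP in turn they ran from -1.51 to -1.39 for COL1A1, -3.94 to -3.78 for COL9A1, -3.17 to -3.04 for HAPLN1, -2.62 to -2.52 for TNC and -2.99 to -2.91 for ITGA1. Scaling by total count or median ratio moved none by more than their spread. With the link of the file list as the input, the ratios turned to 0.63 for COL1A1, 2.64 for COL9A1, 1.78 for HAPLN1, 1.30 for TNC and 1.59 for ITGA1, by construction, since an IP library then stands as the input. Of 50 other named genes, 39 lost their call without each IP and with limma-voom, 5 with no filter (CLDN5, COL13A1, SERPINH1, TAGLN and TIMP3), 2 with median-ratio scaling (CLDN5 and TAGLN) and 1 with the length offset (COL2A1). A call was gained by 11 with DESeq2, by 10 with at least 50 counts in 2 libraries and by NID2 with the length offset. By the link of the file list, the log2 fold changes of other named genes also changed sign: AGRN -0.80, ATOH1 -0.18, CLDN5 -1.28, COL13A1 0.93, COL1A2 1.18, COL26A1 0.62, COL2A1 0.77, COL4A5 0.44, COL5A2 0.45, COL9A2 0.43, COL9A3 0.47, CTGF 0.12, DDR2 0.23, EFEMP1 -0.20, HAS2 5.46, HES6 -1.06, ITGA11 1.08, ITGA4 1.11, ITGA5 1.00, ITGAV 0.85, ITGB1 0.62, ITGB5 0.22, LAMB1 1.18, LAMB2 0.37, LAMC1 1.31, LOXL2 0.66, MATN3 2.25, MEIS2 -0.34, MEOX2 1.66, MMP2 0.69, MMP9 6.05, NGFR -0.41, NID2 1.19, P4HA1 0.74, P4HB 0.47, PDGFRB 0.69, POSTN 1.21, S100B 0.84, SDC3 0.51, SERPINH1 0.49, SNAI2 0.49, SOX11 -0.26, SOX9 1.06, TAGLN -0.11, TGFBI 1.82, TIMP2 -0.37, TIMP3 0.28 and VCAN 1.52.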

Other observations

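In several matrix genes that were lower in the IPs as a whole, 1 transcript was higher there, as uc003kim.3 was in HAPLN1. This was looked for after the values were seen, in genes with at least 2 transcripts and a lower total in every IP, and a transcript counted where each IP had at least 100 reads and more than 4-fold the input's CPM. Such a transcript was found in 10 of 52 matrix genes (19.2%) and in 83 of 738 tied genes (11.2%), and no test was made. In COL5A2 it was uc010frx.3 of 5434 nucleotides, with 239, 295 and 239 CPM in the IPs against 0.945 CPM in the input, or 50.1 to 60.1% of the gene in the IPs against 0.0907% in the input. In FBN1, the gene of the microfibril protein fibrillin-1, uc010beo.2 had 51.1, 43.4 and 43.5 CPM in the IPs against 0.152 CPM in the input. In VCAN it was uc003kik.3 of 4193 nucleotides, with 27.9, 37.1 and 26.8 CPM in the IPs against 1.202 CPM in the input. In COL2A1 it was uc009zkw.3 of 3992 nucleotides, with 56.1, 61.3 and 61.3 CPM in the IPs against 1.42 CPM in the input. The others were in COL11A1, ITGAV, BMP1, LOXL2 and POSTN. Because these values are estimates that divide reads between overlapping transcripts, the shares depend on the transcript set the authors used. IP and input also differed in file tag, and the part of that in these shares cannot be told apart.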
